A study of Mus musculus with 4 samples.

Results

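Olfactory sensory neurons, the odour-detecting neurons of the nose, were found among the barcodes of 4 droplet single-cell libraries made from CD45+ cells of the mouse nasal mucosa. Members were chosen by a gate on raw counts of unique molecular identifiers (UMIs, each a counted transcript). A cell had to hold at least 500 UMIs and 200 genes with under 10% mitochondrial UMIs, and at least 4 UMIs summed over Stoml3, Cnga2, Cnga4 and Gnal with at least 2 of these 4 genes detected. It also had to hold no UMI of Ptprc, the gene of CD45, and under 2 UMIs summed over the macrophage genes C1qa, C1qb and C1qc. The gate was met by 344 of the 72320 cells that passed the quality limits (0.476%), out of 79132 deposited barcodes. The neurons therefore carried no Ptprc UMI by construction, although the libraries had been enriched for CD45.

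The groups were Vehicle, Vehicle-OVA, Ribavirin and Ribavirin-OVA, all C57BL/6 mice aged 8 weeks with no altered gene named, and each group was 1 library. OVA is ovalbumin, the allergen with which allergic rhinitis was induced, and ribavirin is an antiviral drug that the series describes as a nasal spray. Nasal mucosa had been digested with enzymes and CD45+ cells had been taken with magnetic beads per the labels, while the series text names flow sorting. How many mice were pooled in a library, and the dose of ribavirin, are not given in the sources used here. With 1 library per group there is no replicate error, so no difference was tested, and each interval is a 95% interval that covers counting error only. Median depth was 3432 to 5132 UMIs in all passing cells and 7281 UMIs in the neurons (range 526 to 67931).

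Each olfactory sensory neuron carries cilia into the nasal mucus and sends an axon to the olfactory bulb. An odorant bound to a receptor activates the G protein Golf, adenylyl cyclase raises cyclic AMP, a cyclic nucleotide-gated channel opens, and a calcium-activated chloride channel amplifies the current. A mature neuron is known to express a single receptor allele from a very large gene family, and neurons arise throughout life from basal progenitors through a Gap43-positive immature stage.

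The neurons were unevenly spread over the libraries. There were 82 neurons among 25727 passing cells of Vehicle, 13 among 17498 of Vehicle-OVA, 193 among 20278 of Ribavirin and 56 among 8817 of Ribavirin-OVA. The shares were 0.319% (Clopper-Pearson interval 0.254 to 0.396), 0.0743% (0.0396 to 0.127), 0.952% (0.823 to 1.10) and 0.635% (0.480 to 0.824) in that order. The share was lower in each OVA library than in its partner, at a ratio of 0.233 (0.119 to 0.421) under vehicle and 0.667 (0.487 to 0.903) under ribavirin, where a mitochondrial limit of 5% gave a log2 ratio of -0.32 with an interval that held 0 (-0.84 to 0.17). It was 2.99-fold (2.30 to 3.92) higher in Ribavirin than in Vehicle. Epithelial cells, counted by a gate on Epcam, Krt8, Krt18 and Cdh1, moved the same way. They made up 0.614%, 0.246%, 1.94% and 1.36% of the 4 libraries. Per epithelial cell there were 0.519, 0.302, 0.491 and 0.467 neurons, and the ratios between libraries of this value all had intervals that held 1. Since CD45+ cells had been selected, a share of neurons counts cells that passed the selection, and it cannot be told apart from the amount of olfactory tissue taken.

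**Figure D1:**
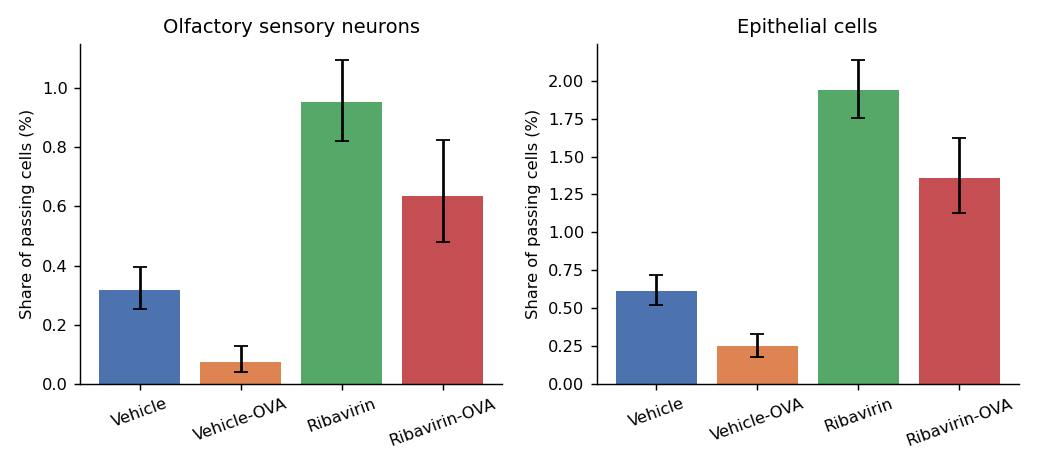
Share of passing cells (percent, axis from 0) that met the gate for olfactory sensory neurons (left) or the epithelial gate (right) in each of the 4 libraries; bars are the shares and error bars are exact 95% binomial intervals for counting error only. Both kinds of cell were least frequent in Vehicle-OVA (0.0743% and 0.246%) and most frequent in Ribavirin (0.952% and 1.94%).

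Some barcodes carried both the neuronal genes and leukocyte genes. A further 186 cells met the neuronal part of the gate and failed the Ptprc or C1q limit, 43, 9, 92 and 42 in the order of the libraries above, and 54 of them held a single Ptprc UMI. Doublets were not called. The Ptprc and C1q limits take out barcodes with RNA of those genes and no others. At the edge of the gate, 15 members had 4 to 7 gate UMIs, and 11 of them held an Omp UMI. Of the cells just outside, Omp was found in 7 of 12 with 2 or 3 UMIs over 2 gate genes and in 5 of 23 with at least 2 UMIs of a single gate gene. Each pair of libraries shared 57 to 174 barcodes. None was shared between 2 neurons, and 3 neurons shared a barcode with some cell of another library.

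Omp, the olfactory marker protein of mature neurons, was not used by the gate and was found in 340 of the 344 neurons (98.8%), at 4426 CPM (UMIs of a gene over all UMIs of the summed cells, scaled to a fixed total) against 2.22 CPM in Ptprc-positive cells without a gate UMI and 2.94 CPM in epithelial cells. As a background of free RNA, an Omp UMI was found in 1.01%, 0.805%, 1.99% and 3.72% of the Ptprc-positive cells of the 4 libraries outside the gate, at median depths of 3722 to 5512 UMIs. Of the 4 neurons without Omp, all had 4 to 6 gate UMIs and 2 had 11 and 24 Gap43 UMIs. Of 15 genes of other olfactory and vomeronasal neurons 6 were at 0, among them the channel genes Trpc2, Cnga3 and Trpm5 and the guanylyl cyclase gene Gucy2d. A count of 0 allows a detected UMI in up to 0.872% of the neurons. It does not show that a gene was unexpressed at this depth. Gnao1, a G protein gene that vomeronasal neurons share with others, was at 373 CPM and found in 80.8% of the neurons, Car2 was at 56.0 CPM, and Gnai2 was at 33.2 CPM against 670 CPM in Ptprc-positive cells. The horizontal basal cell markers Krt14 and Trp63 were at 0 as well, and Krt5 had 3 UMIs. RNA of sustentacular cells, the supporting cells of the olfactory epithelium, was more abundant. The 5 sustentacular markers Cyp2g1, Cyp2a5, Cbr2, Ermn and Muc2 together reached 10 UMIs in 12 members (2, 1, 8 and 1 in the order of the libraries), with up to 2311 UMIs in a barcode. Omp in these 12 was at 29.4 to 2143 CPM. Whether each of them is a neuron, a doublet or another cell was not tested, and they are counted among the 344. The neutrophil markers S100a8, S100a9, Csf3r and Cxcr2 together reached 10 UMIs in 13 neurons, 4 of the 13 of Vehicle-OVA and 9 of Ribavirin, with up to 219 UMIs, and 5 leukocyte markers did so in 4 neurons of Ribavirin.

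Against Ptprc-positive cells the neurons carried a neuronal profile. This contrast is the one the gate used, so the values describe the members and support nothing. Of 16143 genes with at least 50 UMIs in the 2 sets, 2900 (18%) were at least 2-fold higher in the neurons. All 20 tested genes of a list of olfactory neuron genes outside the gate were among them, as were 20 of 23 genes of cilia, 19 of 22 of synapses and vesicle release, and 21 of 23 of axon guidance. None of 17 leukocyte genes was, and all 17 were at least 2-fold lower, as were 1976 of all genes tested (12.2%). The largest fold was that of S100a5, a calcium-binding protein of olfactory neurons, at 15228 CPM against 9.42 CPM (785-fold on CPM + 10). Among the 25 largest folds stood Gng13 (282-fold), Gfy (265-fold), the secretory granule protein Chga (160-fold), the cytoskeletal protein Map1b (156-fold), the adhesion molecule Ncam1 (118-fold), the sodium channel gene Scn9a (90.5-fold) and the neuronal RNA-binding protein gene Elavl3 (92.6-fold).

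The transduction chain was present from receptor to chloride current. Gnal, the alpha subunit of Golf and a gate gene, stood at 2745, 2762, 2486 and 4126 CPM in the order of the libraries above. Its close relative Gnas, which couples other receptors to the same cyclase, was at 118 CPM in the neurons against 458 CPM in Ptprc-positive cells. Those Ptprc-positive cells were chosen to hold no Gnal UMI, so the same contrast says nothing about Gnal. Adcy3, the adenylyl cyclase of the olfactory cilium, was at 1046, 1043, 916 and 1422 CPM and was found in 91.6% of the neurons. The channel subunits Cnga2 and Cnga4, both gate genes, were found in 91.6% and 77.0% of the neurons, and the modulatory subunit Cngb1, outside the gate, in 78.2% at 278, 219, 215 and 331 CPM. Ano2, the calcium-activated chloride channel, was found in 76.2% at 376, 470, 270 and 421 CPM, and Slc12a2, which loads the cell with chloride, at 638, 1088, 476 and 894 CPM. The counts of Vehicle-OVA rest on 13 neurons.

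**Figure D2:**
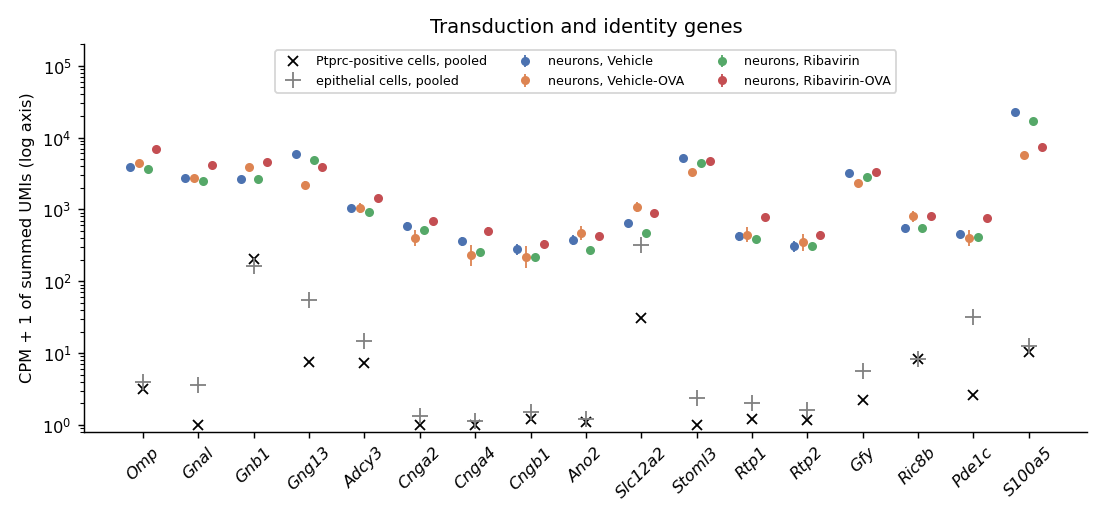
Levels of 17 transduction and identity genes as CPM + 1 of summed UMIs (log axis) in the neurons of each library, with exact 95% Poisson intervals, beside pooled Ptprc-positive cells (crosses) and epithelial cells (plus signs). Each gene was higher in the neurons of every library than in Ptprc-positive cells, with the narrowest gaps for Gnb1 and Slc12a2. The Ptprc-positive cells shown held no UMI of the gate genes Gnal, Cnga2, Cnga4 and Stoml3. The gap of these genes was therefore fixed in advance.

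Genes that move receptors to the membrane accompanied the chain. Rtp1 and Rtp2, chaperones of odorant receptors, were at 477 and 342 CPM against 0.216 and 0.167 CPM in Ptprc-positive cells. Ric8b, a chaperone of the Golf alpha subunit, was at 615 against 7.37 CPM. Gfy (goofy), a Golgi protein of olfactory neurons, was at 2976 against 1.25 CPM. Atf5, a transcription factor whose translation the unfolded protein response to receptors is known to raise, was at 2118 against 12.7 CPM. The transcription factors Lhx2, Ebf1, Ebf2 and Ebf3, known regulators of olfactory neuron genes, were at 556, 1209, 833 and 522 CPM and found in 88.7% to 96.5% of the neurons. Of the vesicular glutamate transporters, Slc17a6 was at 260 CPM and found in 75.3% of the neurons, and Slc17a7 was at 0.

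The promoters of several of these genes hold the letters CCCNNGGG, the core of the sequence that Ebf factors recognise. The motif was picked after some of the promoters had been seen. RefSeq (GRCm38.p6) gave a window from 250 bases before to 50 bases after the start for 19 of 25 genes of the gate and the identity list. The motif, which reads the same on both strands, was in the windows of 10 of these 19 genes (52.6%), against 15.4% of 27025 genes. A gene can have more than 1 window, and per window the shares were 37.0% of 27 against 13.7% of 32851. It was in 7 of the 19 genes with a window among the 25 of largest fold (36.8%). Gfy, Gng13 and Umodl1 held it in both sets, so the 2 counts are not separate. The 250 bases before the start of 3 genes with the motif there (in capitals), the channel subunit Cnga2, the chaperone Rtp2 and Gfy, and of the gate gene Stoml3, which has none in its window, are given 5′ to 3′ on the strand of the gene.
Cnga2, chrX:71991599-71991848, plus strand: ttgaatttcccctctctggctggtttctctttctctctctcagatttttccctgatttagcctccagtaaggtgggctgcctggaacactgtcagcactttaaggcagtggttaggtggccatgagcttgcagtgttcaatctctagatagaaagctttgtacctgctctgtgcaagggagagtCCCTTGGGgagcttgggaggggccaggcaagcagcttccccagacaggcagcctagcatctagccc
Gfy, chr7:45179598-45179847, minus strand: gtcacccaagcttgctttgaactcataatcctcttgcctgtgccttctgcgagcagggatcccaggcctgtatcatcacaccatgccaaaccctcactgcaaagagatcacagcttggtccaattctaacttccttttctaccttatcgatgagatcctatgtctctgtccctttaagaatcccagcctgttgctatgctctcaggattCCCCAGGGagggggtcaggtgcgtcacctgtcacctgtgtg
Rtp2, chr16:23930795-23931044, minus strand: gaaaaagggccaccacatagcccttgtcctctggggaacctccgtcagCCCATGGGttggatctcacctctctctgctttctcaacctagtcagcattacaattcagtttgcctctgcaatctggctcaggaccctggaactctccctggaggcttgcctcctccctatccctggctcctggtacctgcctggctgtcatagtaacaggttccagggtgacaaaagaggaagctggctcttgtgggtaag
Stoml3, chr3:53488457-53488706, plus strand: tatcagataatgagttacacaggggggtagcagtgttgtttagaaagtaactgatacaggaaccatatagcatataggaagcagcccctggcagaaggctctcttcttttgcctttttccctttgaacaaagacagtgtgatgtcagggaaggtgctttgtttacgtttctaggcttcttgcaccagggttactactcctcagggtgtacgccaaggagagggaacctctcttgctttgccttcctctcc
The motif began 66 bases before the start in Cnga2, 41 in Gfy and 202 in Rtp2. Receptor genes differed in both motifs searched. The Ebf letters were in 2.98% of 939 receptor genes with a window, and the homeodomain letters TAATTA were in 18.5% of them against 6.12% of all genes. In 82.2% of the receptor records the gene spanned under 1100 bases, about the length of the coding part, so the listed start may be that of the coding part and not that of the transcript. These are matches of letters and not sites of binding.

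Receptor genes were not used by the gate and gave the clearest picture of the neurons as single cells. The matrix lists 1141 receptor genes, 1126 odorant receptor (Olfr) genes and 15 trace amine-associated receptor (Taar) genes, and 210 of them had a UMI in the neurons. At least 1 receptor UMI was found in 75.3% of the neurons. A leading receptor, a gene with at least 2 UMIs and more than any other receptor, was found in 208 of 344 neurons (60.5%, interval 55.1 to 65.7). By library it was found in 53.7%, 69.2%, 59.6% and 71.4%, and after each neuron was thinned to 2000 UMIs in 36.0%, 54.5%, 32.1% and 46.5% (25 shallower neurons left out). In Ptprc-positive cells outside the gate 2.18% held a receptor UMI and 0.155% held a receptor gene at 2 UMIs. The 85 neurons with no receptor UMI had a median of 5946 UMIs against 8013 UMIs in those with a leading receptor, so absence was not detectable at this depth.

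Where a neuron held at least 5 receptor UMIs, a single receptor gene dominated. In the 144 neurons with at least 5 receptor UMIs, the leading gene held a median of 100% of the receptor UMIs, and 136 of them (94.4%) had UMIs of 1 receptor gene only. The lowest share was 66.7%. The highest counts came from Olfr869 with 110 UMIs, Olfr794 with 99 and Olfr1205 with 73 in 3 neurons of Ribavirin-OVA, and from Olfr1056 with 84 and Olfr309 with 58 in 2 neurons of Ribavirin. None of these 5 neurons held a UMI of any other receptor gene. Another receptor gene reached 2 UMIs in 5 neurons. They were Olfr1095 with Olfr141 and Olfr1260 with Olfr1211 in Vehicle, Olfr1350 with Olfr309 and Olfr190 with Olfr191 in Ribavirin, and Olfr1036 with Olfr1034 in Ribavirin-OVA. The genes of each pair lie on the same chromosome, and the Olfr1260 and Olfr190 barcodes also held 400 and 490 sustentacular UMIs. How reads shared by near-identical receptor genes were counted is not given in the sources used here, so the split within such pairs is uncertain.

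**Figure D3:**
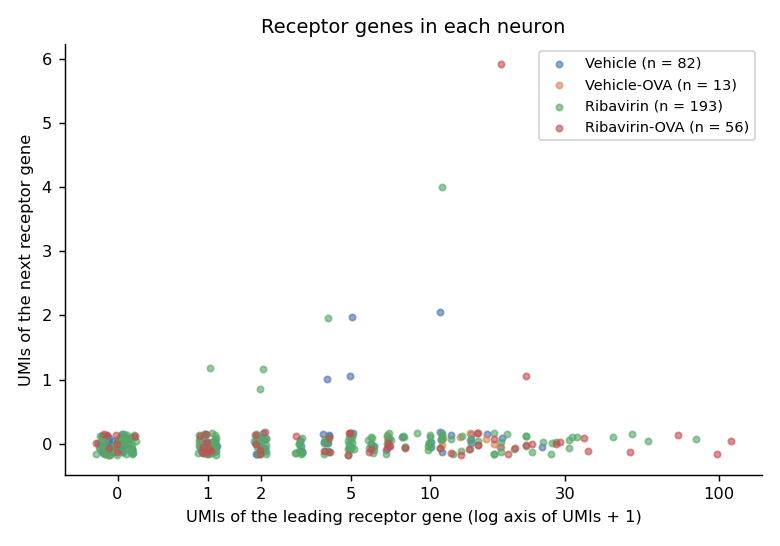
UMIs of the leading receptor gene (log axis of UMIs + 1) against UMIs of the next receptor gene in each of the 344 neurons, coloured by library, with a small random shift so that points can be seen. Nearly all points lie at 0 on the vertical axis however many UMIs the leading gene has, up to 110, and 5 neurons reach 2 or more.

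The receptors were diverse. The 208 neurons led with 169 different genes, of which 139 led in a single neuron, 25 in 2, 3 in 3, 1 in 4 (Olfr1348) and 1 in 6 (Olfr726). Of the 30 receptors that led in more than 1 neuron, 19 did so in 2 or more libraries. Olfr726 led in 1 neuron of Ribavirin and 5 of Ribavirin-OVA, and 4 of these 5 barcodes held only 625 to 1377 UMIs with 2 to 5 Olfr726 UMIs, while the remaining barcode held 22365 UMIs with 36. Whether those shallow barcodes are cells of their own was not tested. Olfr1222, Olfr592 and Olfr1228 led in 3 neurons each. Class I receptors, the older family that fish share, led in 35 neurons (16.8%, interval 12.01 to 22.6) and make up 11.3% of the receptor genes. Class II receptors led in 166 neurons (79.8%) and make up 85.9%. Taar genes led in 5, and 2 neurons had a receptor of no assigned class. Receptors of chromosome 14, with 41 of the 1141 genes, led in 21 neurons, whereas those of chromosome 9, with 131 genes, led in 14, and none of the 24 genes of chromosome 4 led in any.

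The receptor followed the zone genes of the neuron. Nqo1, a quinone reductase of dorsal olfactory neurons, and Ncam2 (OCAM), an adhesion molecule of the remaining ones, were largely exclusive. Of the 344 neurons, 136 held Nqo1 UMIs only, 110 held Ncam2 UMIs only, 11 held both and 87 held neither, with a median of 4543 UMIs in these last. Genes not used for this split followed it. Acsm4 (O-MACS), a dorsal marker, was found in 88.2% of the Nqo1 neurons and 3.64% of the Ncam2 neurons. Nrp2, a guidance receptor of ventral axons, was found in 14.7% and 69.1%, the transcription factors Nfib and Nfix in 12.5% and 84.5% and in 13.2% and 89.1%, and Robo2, a guidance receptor of dorsal axons, in 80.1% and 46.4%. Median depths were 7206 and 8620 UMIs.

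Of the 35 neurons led by a class I receptor, 34 held Nqo1 (97.1%, interval 85.1 to 99.9), namely 4 of 4, 2 of 2, 22 of 23 and 6 of 6 in the order of the libraries. The exception, in Ribavirin, was led by Olfr78 and held neither gene, and 1 neuron with Nqo1 held Ncam2 as well. Class II receptors were found on both sides, with Nqo1 in 47 of 166 neurons (28.3%, 21.6 to 35.8) and Ncam2 in 78 (47.0%, 39.2 to 54.9). The 5 Taar neurons, led by Taar4 in 2 of them and by Taar6, Taar7a and Taar7b, all held Ncam2, at 1 to 6 UMIs, and 1 of them held a single Nqo1 UMI. Their other zone genes were mixed. Nrp2 was at 452 CPM against 178 CPM in class II neurons, but Acsm4 was at 218 against 136 CPM and Nfix at 50.2 against 282 CPM. The Taar6 neuron, at 26192 UMIs in all, held 18 Nrp2 UMIs, and the other Taar neurons held 0 to 5. The Taar7b neuron held 7 Acsm4 UMIs and the Taar4 neuron of Vehicle-OVA held 6. Neurons with the same receptor had the same zone gene. Among neurons that held only Nqo1 or only Ncam2, 28 of 28 pairs led by the same receptor matched, over 22 receptors, and this included 15 of 15 pairs from different libraries. Among 12062 pairs with different leading receptors 49.6% matched. Pairs of neurons share cells and are not independent, so these counts are a description.

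**Figure D4:**
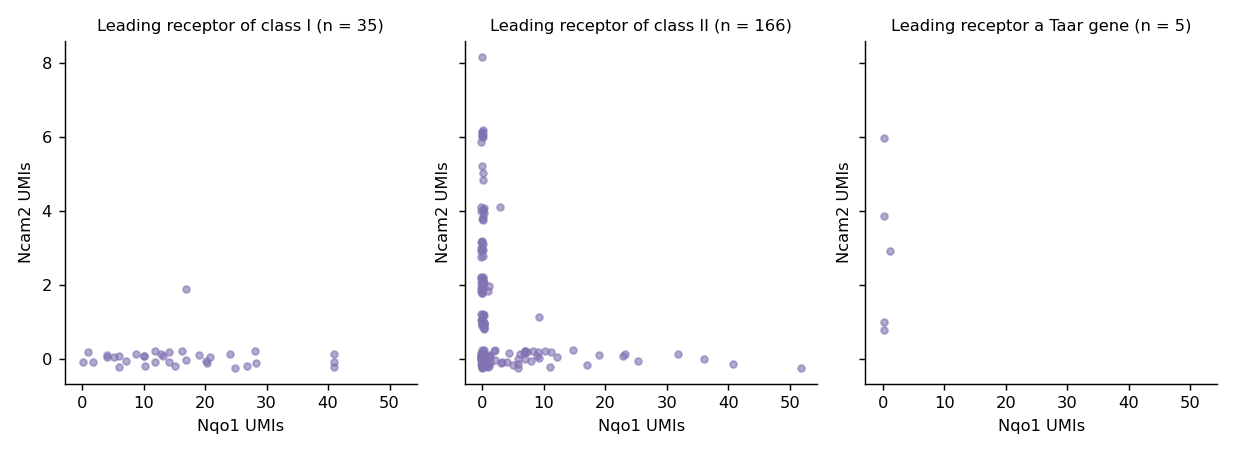
Nqo1 against Ncam2 UMIs in each neuron whose leading receptor was of class I (n = 35), class II (n = 166) or a Taar gene (n = 5), with a small random shift. Class I neurons lie along the Nqo1 axis, Taar neurons along the Ncam2 axis, and class II neurons along either.

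A minority of the neurons carried genes of the immature stage. At least 5 UMIs of Gap43, a growth cone protein, were found in 52 neurons (15.1%, interval 11.5 to 19.4), 10 in Vehicle (12.2%), 1 in Vehicle-OVA (7.69%), 34 in Ribavirin (17.6%) and 7 in Ribavirin-OVA (12.5%). The limit cuts a range, and 14 neurons had 3 to 7 UMIs. Genes of immature neurons were higher in these 52, with Gng8 at 488 against 3.54 CPM in the other 292, Stmn1 at 2566 against 134 CPM, Stmn2 at 2052 against 292 CPM and Dpysl3, a growth cone protein, at 564 against 19.5 CPM. Genes of mature neurons were lower, with Adcy3 at 246 against 1310 CPM, Umodl1 at 236 against 1108 CPM and Omp at 2070 against 5182 CPM. Stoml3, a gate gene on which the members were selected, was at 1803 against 5432 CPM. Rtp1 differed less (426 and 493 CPM). Ribavirin-OVA showed less of this contrast. Its 7 neurons had Omp at 5639 CPM against 7280 CPM in its others, where Ribavirin had 1132 and 4584 CPM. In Ribavirin-OVA S100a5 was at 6964 and 7392 CPM, and Adcy3 was still lower, at 707 and 1597 CPM. A Gng8 UMI was found in 3 of all 56 neurons of Ribavirin-OVA. Of the 12 barcodes with 10 or more sustentacular UMIs, 7 were among the 52 and held 29.4% of their UMIs. Without the 12, Gng8 was at 573 against 3.46 CPM, Stmn1 at 3011 against 143 CPM, Adcy3 at 282 against 1442 CPM, Omp at 2600 against 5717 CPM and Rtp1 at 551 against 539 CPM. Omp was still found in 50 of the 52. A leading receptor was found in 33 of the 52 and in 175 of the other 292, at median depths of 10932 and 6872 UMIs. Of 13 progenitor genes 3 were found in at least 10% of the neurons, and 3 of 11 tested were at least 2-fold higher than in Ptprc-positive cells. Insm1, a transcription factor of neuronal precursors, was found in 46 neurons, 36 of them among the 52. Neurog1 was found in 1 neuron, Neurod1 in none and the proliferation gene Mki67 in 2.03%. The gate asked for 4 UMIs of mature genes, so earlier stages could not enter it in full.

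Genes that are known to follow odour-driven activity varied widely between neurons. S100a5, whose level in olfactory neurons is known to rise with stimulation, was at 0 in 54 neurons, 30 of them with 5 or more Gap43 UMIs, and reached 121055 CPM in a single neuron of Vehicle. Among the 292 neurons with under 5 Gap43 UMIs, its median was 10469 CPM with quartiles of 2388 and 28829 CPM, while the quartiles of Omp were 3901 and 6478 CPM. The comparisons that follow are within these 292. Calb2 (calretinin) was found in 42 of them and in 49 of the 52 others. In the 22 with at least 5 Calb2 UMIs the median of S100a5 was 88.5 CPM, against 13203 CPM in the 250 without Calb2. The difference had the same direction within Vehicle (125 and 20117 CPM), Ribavirin (179 and 18523 CPM) and Ribavirin-OVA (0 and 2699 CPM), and no such neuron of Vehicle-OVA reached 5 Calb2 UMIs. The adhesion molecules Kirrel2 and Kirrel3, which sort axons and are known to respond to activity in opposite ways, differed between neurons in opposite directions. In the 23 neurons with at least 2 Kirrel3 UMIs the median of Kirrel2 was 220 CPM, against 829 CPM in the 224 neurons with none. The 29 neurons with at least 5 UMIs of Pcdh10, a protocadherin, had medians of 24966 CPM for S100a5 and 1175 CPM for Kirrel2, against 7106 and 414 CPM in the 191 neurons with none. Omp medians were 5305 and 5039 CPM with and without Calb2, 5102 and 5078 CPM for Pcdh10, and 6435 and 4966 CPM for Kirrel3. The Kirrel3 and Pcdh10 comparisons pooled the libraries and were not repeated within them. Kirrel2 medians differed by library, at 776 CPM in Vehicle, 97.8 in Vehicle-OVA, 780.5 in Ribavirin and 367 in Ribavirin-OVA. The part of the library mix in these comparisons was not tested.

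Between libraries, S100a5 was lower and Omp higher in the neurons of both OVA libraries than of their partners. Summed S100a5 was 22822 CPM (exact Poisson interval 22401 to 23249) in Vehicle against 5621 CPM (5254 to 6006) in Vehicle-OVA. Under ribavirin it was 16860 CPM (16665 to 17056) without OVA and 7308 CPM (7098 to 7521) with OVA. The medians per neuron were 9808, 2776, 10477 and 2385 CPM, and with neurons of 5 or more Gap43 UMIs left out 12815, 3246, 15671 and 2392 CPM. The neurons overlapped widely, since every library held neurons at 0 and the highest neuron of Vehicle-OVA reached 39154 CPM. The share of neurons with an S100a5 UMI was 86.6%, 84.6%, 83.9% and 82.1%. In Ptprc-positive cells outside the gate S100a5 UMIs were less frequent in each OVA library than in its partner, at 4.79%, 1.14%, 10.7% and 3.81% of cells. Each OVA library also held a lower share of neurons, and the part of this in the free S100a5 RNA was not tested. Omp summed to 3885, 4475, 3639 and 6957 CPM, with medians per neuron of 4112, 7489, 4467 and 7580 CPM. Without the 12 barcodes of 10 or more sustentacular UMIs, S100a5 was at 24556, 8161, 20163 and 8030 CPM and Omp at 4049, 6316, 4339 and 7522 CPM. Other measures moved with the OVA libraries. The nuclear RNA Malat1 had medians of 45243, 15606, 37611 and 21654 CPM per neuron, Gm42418, which overlaps ribosomal RNA, summed to 19047, 22902, 24186 and 52447 CPM, and the median depth was 5211, 8508, 7651 and 11528 UMIs. Their part in the result was not tested. These are differences between single libraries, and an effect of OVA, of the mice pooled and of library preparation cannot be told apart.

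**Figure D5:**
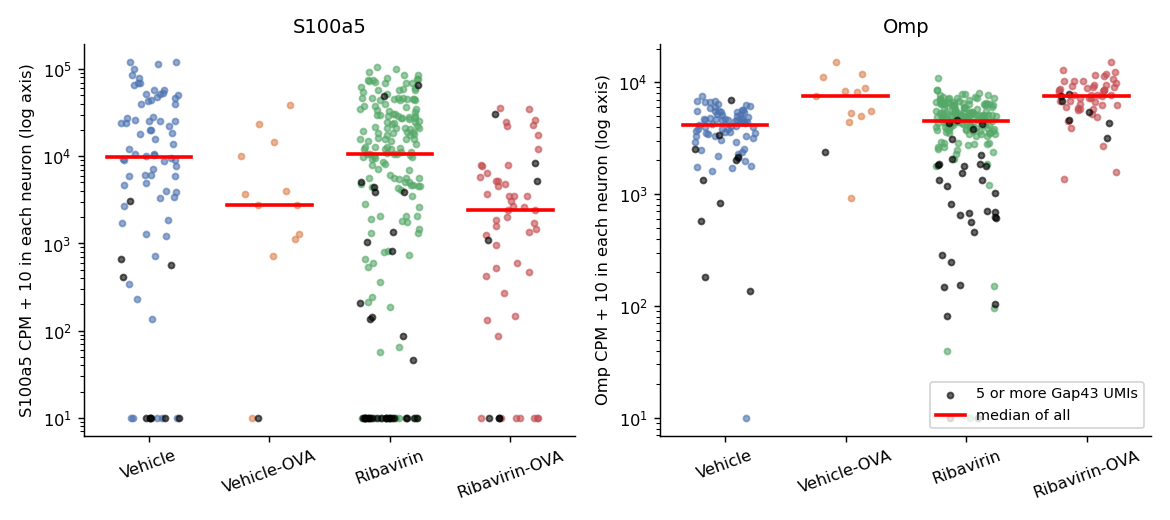
S100a5 (left) and Omp (right) as CPM + 10 in each neuron (log axis) by library, with a small random shift; black points are neurons with 5 or more Gap43 UMIs and red lines are the medians of all neurons of a library. The S100a5 medians are lower in Vehicle-OVA (2776 CPM) and Ribavirin-OVA (2385 CPM) than in Vehicle (9808 CPM) and Ribavirin (10477 CPM), the Omp medians are higher in the OVA libraries, and the points of all libraries overlap.

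Genes were compared between libraries with at least 20 neurons, on log2 of CPM + 10 for genes with at least 50 UMIs. In Ribavirin-OVA over Ribavirin, 159 of 6770 genes (2.35%) were at least 2-fold higher and 354 (5.23%) at least 2-fold lower, around a median of 0.12 on the log2 scale over all genes. No gate gene was past 2-fold. Of 20 olfactory neuron genes outside the gate 2 were, Umodl1 (log2 ratio 1.08) and Rtp1 (1.02). Both were higher, and both were under 2-fold once that median is subtracted. As sets, the gate genes and these 20 stood above that median, with list medians of 0.56 and 0.60. Efna5, an axon guidance ligand, was at 72.7 CPM (60.4 to 86.6) without OVA and 297 CPM (256 to 343) with OVA and was found in 39.9% and 71.4% of the neurons. Under vehicle it was at 73.6 and 129 CPM, and in Ptprc-positive cells outside the gate at 1.29 and 3.90 CPM under ribavirin. Ebf2 was higher by 1.18. Plxna1, a semaphorin co-receptor, was higher by 1.21, but under vehicle it was lower with OVA (147 and 57.9 CPM), and in Ptprc-positive and epithelial cells of the ribavirin libraries it was higher with OVA as well (6.88 and 18.4 CPM, 10.6 and 17.1 CPM). Of 19 immature genes tested, none was 2-fold higher and 5 were lower. They included Gng8 (-3.60), with 289 UMIs in Ribavirin and 3 in Ribavirin-OVA, Stmn1 (-1.59) and Gap43 (-1.40). The 3 largest positive ratios, of Spata22, Olfr869 and Olfr794, each came from 1 neuron. The 3 largest negative ratios, of Dcpp3, Scgb1c1 and Chil6, belong to genes of glands and secretory epithelium, and in Ribavirin a single barcode gave 2367 of 2373 UMIs of Dcpp3, 1 barcode gave 4713 of 6753 of Scgb1c1 and 1 gave 452 of 497 of Chil6. Without the 12 barcodes of 10 or more sustentacular UMIs these genes were at 0, 74.8 and 1.74 CPM in Ribavirin-OVA and at 0, 70.3 and 2.13 CPM in Ribavirin.

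In Ribavirin over Vehicle, 202 of 6442 genes (3.14%) were at least 2-fold higher and 6 (0.0931%) at least 2-fold lower, around a median of -0.02. None of the 4 gate genes and none of the tested olfactory neuron genes outside the gate was past 2-fold, with list medians of -0.23 and -0.13. Of 13 sustentacular genes tested 12 were higher. The genes of the 3 largest positive ratios, Dcpp3, Chil4 and Rgs5, were at 1391, 1184 and 1617 CPM in Ribavirin and at 0, 7.81 and 1.42 CPM once the 12 barcodes with 10 or more sustentacular UMIs were left out. Without these barcodes 48 genes were past 2-fold in place of 208, counted among the genes that still held at least 50 UMIs. The immediate-early gene Fos, which both odour and tissue dissociation are known to raise, was at 239, 264, 713 and 128 CPM and without these barcodes at 124, 146, 181 and 136 CPM. The 3 largest negative ratios were those of Bglap3, from 1 barcode of Vehicle, Coch and Zbbx. Coch had 84 UMIs in 1 barcode of Vehicle, and without the 12 barcodes it was higher in Ribavirin (47.6 CPM) than in Vehicle (37.8 CPM). Obp1a, an odorant-binding protein that nasal glands secrete, was at 44.97, 19.3, 1007 and 288 CPM in the neurons, and at 2746, 466, 13025 and 8047 CPM in Ptprc-positive cells of the same libraries. The neutrophil gene S100a9 was found in 58.5%, 100%, 83.4% and 64.3% of the neurons, and after thinning in 30.7%, 81.8%, 45.3% and 20.9%. These genes of other cells moved between libraries in the neurons, and their part in the other differences was not tested.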

How the data were processed

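The authors deposited, per library, UMI counts for each gene in each called cell, made with Cell Ranger 5.0.0 on the build mm10 per the submitters' processing notes, as whole numbers and with no normalization. The matrix lists 27998 genes and no column was left unused. From these counts, cells were filtered and gated as the report states, UMIs were summed per set of cells and library, and CPM was computed with Python 3.11.15, numpy 2.4.6, pandas 2.3.3 and scipy 1.17.1. Ratios used a pseudocount of 10 CPM and genes with at least 50 UMIs. With 1 library per group no test was run. Intervals are exact (Clopper-Pearson, Poisson or conditional binomial, 95%). Total depth was 91742940 to 171873110 UMIs per library. Named genes were those of 27 lists, the 25 largest folds over Ptprc-positive cells and the 3 largest rises and falls of each pair of libraries. Genes whose symbol belongs to more than 1 identifier (121 identifiers) matched no list. Receptor class was taken from the MOR numbers among the RefSeq synonyms. Epithelial cells had 4 or more UMIs over 4 markers with 2 detected, no Ptprc and under 2 gate UMIs. The gate, the lists and the limits were chosen with earlier results of these data known. The functions were tested on simulated data. Alternatives are given in the closing section.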

Additional observations from a re-analysis of the deposited data

Results flagged for a closer look

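Barcodes outside the comparisons also carried neuronal transcripts. The gate genes were met in 186 cells that held Ptprc or at least 2 C1q UMIs, 103 by Ptprc only, 37 by C1q only and 46 by both, and 171 of them held Omp. They were met in 32 further barcodes that failed the mitochondrial limit, 10, 5, 11 and 6 in the order Vehicle, Vehicle-OVA, Ribavirin and Ribavirin-OVA.

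In Ptprc-positive cells outside the gate, Olfr920 had 603 UMIs, 38.7% of all receptor UMIs there, and none in the neurons. Its level was 1.06, 1.60, 1.13 and 1.97 CPM in the 4 libraries. The next receptor genes there, Olfr56 (195 UMIs), Olfr433 (176), Olfr60 (89) and Olfr1444 (62), also had no UMI in the neurons.

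For 4 genes the ratio of the OVA library to its partner lay below 1 under vehicle and above 1 under ribavirin, each with an interval that left out 1. The ratio in the neurons was 0.624 (0.566 to 0.686) and 1.06 (1.01 to 1.10) for Stoml3, 0.674 (0.503 to 0.889) and 1.32 (1.18 to 1.49) for Cnga2, 0.644 (0.437 to 0.926) and 1.94 (1.68 to 2.25) for Cnga4, and 0.723 (0.643 to 0.812) and 1.18 (1.12 to 1.24) for Gfy. The difference between the ratios was not tested. Without the 12 barcodes of 10 or more sustentacular UMIs none of the 4 kept opposite ratios beyond counting error. They were then 0.833 (0.753 to 0.920) and 0.952 (0.912 to 0.994) for Stoml3, both below 1, 0.876 (0.643 to 1.17) and 1.24 (1.10 to 1.39) for Cnga2, 0.777 (0.505 to 1.16) and 1.74 (1.5 to 2.02) for Cnga4, and 0.921 (0.813 to 1.04) and 1.05 (0.994 to 1.10) for Gfy. Stoml3, Cnga2 and Cnga4 were gate genes, and Vehicle-OVA rests on 13 neurons.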

How the results depend on the processing

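No paired analysis was possible because each group has 1 library. Of 96 alternative values of the share ratios, the receptor measures and the counts of genes past 2-fold, 82 stayed within the spread or factor set for them, 13 moved further and 1 changed direction. On the log2 scale the ratio of neuron shares was -2.10 for Vehicle-OVA over Vehicle, -0.58 for Ribavirin-OVA over Ribavirin, 1.58 for Ribavirin over Vehicle and 3.10 for Ribavirin-OVA over Vehicle-OVA. With epithelial cells as the denominator, chosen after seeing the data, they were -0.78, -0.074, -0.080 and 0.63, so that Ribavirin over Vehicle changed direction, and all 4 intervals held 0. A mitochondrial limit of 5% gave 4.15 for Ribavirin-OVA over Vehicle-OVA, and -0.32 for Ribavirin-OVA over Ribavirin, with an interval that held 0. The share of neurons with a leading receptor went from 60.5% to 75.3% at 1 UMI, 46.8% at 4 UMIs and 35.7% after thinning to 2000 UMIs. The median share of the leading receptor stayed at 100% in every setting. The count of genes past 2-fold in Ribavirin-OVA over Ribavirin was 513, and 810 with a pseudocount of 1 CPM, 252 with at least 200 UMIs, and 885 with the mean of single-cell CPM (446 higher and 439 lower, against 159 and 354). In Ribavirin over Vehicle it was 208, and 346 with at least 20 UMIs and 76 with at least 200. It was 48 without the barcodes of 10 or more sustentacular UMIs, an alternative added after seeing the data. A change of the UMI limit or of the cells also changes how many genes are tested. Counts from such settings are therefore not on the same base, and their shares are not given here. The other 36 alternative values, of single measures, stayed within their spread. Neurons without a receptor or zone UMI were shallower, and a lack of such a UMI does not show absence.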

Other observations

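Genes of the stress granule list, which the study's question concerns, were detected in the neurons. G3bp1, the scaffold of stress granules, was at 110 CPM in the neurons, 115 CPM in Ptprc-positive cells and 91.8 CPM in epithelial cells. Caprin1, its partner, was at 157, 116 and 82.8 CPM. Of 22 tested genes of allergen and type 2 signals, 14 were at least 2-fold lower in the neurons than in Ptprc-positive cells and 2 were higher. Of all genes tested, 12.2% were lower and 18% higher. Il4ra, a receptor gene of type 2 cytokines, was at 11.7 CPM in the neurons against 152 CPM in Ptprc-positive cells. Fth1, the ferritin heavy chain, was at 2156 CPM against 12340 CPM. The interferon-stimulated list held 18 genes, of which 14 were at least 2-fold lower in the neurons than in Ptprc-positive cells and none was higher, where 12.2% of all genes tested were lower. No UMI of the 4 erythroid genes was found in the neurons.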
